A study of Homo sapiens with 8 samples.

Results

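The mitosis and G2/M genes are 46 genes that drive entry into mitosis, the spindle, the kinetochore, the spindle checkpoint and cell division. They were chosen by name, with earlier results of these data known, and no measured value enters the rule. A member's data are the rows of the deposited stability tables whose RefSeq accession belongs to its symbol. All 46 members had a value in both tables, of 12480 genes in all. They came to 101 transcripts, every one a coding accession, of which 96 were in both tables, 2 in the table of control cells only and 3 in the table of knockdown cells only. The samples were SW480 cells, an established human colorectal adenocarcinoma line which the series text calls a breast cancer line, with stable expression of either a control hairpin (shControl) or a hairpin against RBMS1 (shRBMS1, called knockdown here), a protein that binds AU-rich RNA. For each shRNA, 2 libraries were made from untreated cells (0 h) and 2 from cells exposed for 9 h to alpha-amanitin, a mushroom toxin that blocks RNA polymerase II, at 10 µg/mL, which gave 8 libraries in 4 groups. All cells carried an shRNA, so no group is without one. The sample labels name a single RBMS1 clone while the series text names a pair, so which hairpin the libraries hold is not settled. Of 13 colon epithelial markers, 8 were listed in the control table and 6 in the knockdown table, among them EPCAM, KRT8, KRT18 and CDX2. CDX1, LGR5, CEACAM5, CDH17 and GPA33 were listed in neither, and KRT20 and VIL1 in the control table only. Of 9 breast markers only KRT5 was listed in either. Only presence was read, which does not settle the tissue of origin.

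Each value is the log2 fold change of a transcript, 9 h over 0 h, as the authors computed it after combining the libraries of a group. The tables do not state the base or the direction of the fold change, and log2 was taken. A value of −1 then means that the level at 9 h was 1/2 of that at 0 h on the authors' scale. Since the median of all genes lies near 0 in both tables after a transcription block, the values are read as relative to other mRNAs and not as absolute amounts left. A member's value is the mean over its transcripts in both tables. The tables give no value per library, count or error. The depth is therefore unknown, replicate spread cannot be set beside any difference, and no test was possible. Sizes are described beside the same counts over all genes. The authors' sign was read from short-lived mRNAs. In the authors' deposited tables FOS stood at −1.61 in shControl and −1.24 in shRBMS1 cells, JUN at −1.01 and −0.81 and MYC at −1.44 and −1.38. These ratios do not measure the knockdown itself. The transcripts of RBMS1 stood at 0.09 and −0.37 in shControl and at −0.35 and −1.38 in shRBMS1 cells per the authors' deposited tables.

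Cells build up the mRNAs of mitotic proteins in each cycle before division, and much of that rise is transcriptional. The MuvB complex joins B-MYB and FOXM1 to activate these genes in G2, or joins the repressors of the DREAM complex to silence them in resting and early G1 cells, at a promoter element called the cell cycle genes homology region (CHR), often beside CCAAT boxes bound by NF-Y. The proteins are then destroyed at mitotic exit by the anaphase-promoting complex (APC/C), and turnover of the mRNAs, by elements in the 3′UTR such as those bound by Pumilio proteins, resets their level. A transcription block over several hours shows which of these mRNAs outlast others, although cells may also move through the cycle in that time, and cycle position was not measured here.

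The promoters show what the members share apart from their names. The CHR core was searched as TTTGAA or TTCGAA on either strand in the 250 bases before to 50 bases after each RefSeq start (GRCh38.p14), and the CCAAT box as CCAAT on either strand. The promoter table held 49 promoters of 39 members. AURKA, BIRC5, BUB3, FOXM1, KNL1, TPX2 and TTK were not in it. A CHR core stood in 34 of the 49 promoters (69.4%), against 11.7% of 14199 promoters of all measured genes and 16.4% of all 35116 promoters in the table. In 30 of the 49 (61.2%) it began no more than 100 bases before the start, against 4.93% for measured genes. A CCAAT box stood in 37 of 49 (75.5%), against 35.1%, and both elements in 29 (59.2%), against 4.82%. The last 80 bases before the start are shown for 6 members with a CHR core in this stretch, chosen to include cyclin, kinase, checkpoint and centromere genes, with CHR cores and CCAAT boxes on either strand in capitals:

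PLK1 (chr16:23678809-23678888, plus strand): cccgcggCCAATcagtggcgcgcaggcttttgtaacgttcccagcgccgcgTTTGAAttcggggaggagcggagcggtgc
CDK1 (chr10:60778398-60778477, plus strand): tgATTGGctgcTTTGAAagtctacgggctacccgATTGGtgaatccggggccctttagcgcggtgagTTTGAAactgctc
CCNB2 (chr15:59105066-59105145, plus strand): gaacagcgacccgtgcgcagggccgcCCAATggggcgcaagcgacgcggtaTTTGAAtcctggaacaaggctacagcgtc
CDC20 (chr1:43358901-43358980, plus strand): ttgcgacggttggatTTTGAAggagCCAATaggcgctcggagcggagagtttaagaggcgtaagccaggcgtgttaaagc
CENPA (chr2:26785976-26786055, plus strand): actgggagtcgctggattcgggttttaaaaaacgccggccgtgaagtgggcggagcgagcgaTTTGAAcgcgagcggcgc
MKI67 (chr10:128126424-128126503, minus strand): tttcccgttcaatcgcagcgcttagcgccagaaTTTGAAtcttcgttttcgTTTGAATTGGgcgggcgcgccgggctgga

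In PLK1 and CCNB2 the CHR core began 29 bases before the start, and a CCAAT box lay farther upstream in each. In CDC20 the order was the reverse, with the core at 65 bases before the start. CDK1 held a core at 69 and another at 13 bases before the start. The other genes of the pathway, 143 mitotic genes from 6 lists, had a CHR core in 58 of 170 promoters (34.1%), and DNA replication genes, which peak earlier in the cycle, in 4 of 65 (6.15%). The members with a core in the searched stretch had a median of −0.49 in shControl and −0.46 in shRBMS1 cells over 31 genes, and the 8 members without one −0.52 and −0.43, so the medians with and without the core lay close together. No match says only that these letters are not in the searched bases.

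The 3′UTR is the part of the mRNA most often read by decay factors. The 3′UTRs came from GENCODE release 29 (GRCh38), the longest among a gene's transcripts in both tables, for all 46 members and 10976 genes in all. The members' 3′UTRs were shorter than those of all genes, with a median of 747 nt against 1111 nt, and richer in A and T, with a median of 64.2% against 57.7%. The Pumilio element was searched as TGTANATA on the sense strand, and 23 of 46 members (50%) held at least 1, against 27.4% of all genes. Per kilobase of 3′UTR the members held 0.709 such sites and all genes 0.243. Of the 18 members at −0.5 or below in both cell populations, 9 held the element, which is the same share as among all members. All 16 sites of these 9 members are shown, with the element in capitals:

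TTK site 1 (chr6:80042369-80042398, plus strand): acttatggcacTGTATATAttgtagacttg
TTK site 2 (chr6:80042478-80042507, plus strand): ctaaaaaacttTGTAAATAaagttttgtgg
KIF20B site 1 (chr10:89774102-89774131, plus strand): gcatcctgtatTGTAAATAtaaatgtatat
KIF20B site 2 (chr10:89774114-89774143, plus strand): gtaaatataaaTGTATATAttatgcattaa
KIF20B site 3 (chr10:89774471-89774500, plus strand): atcacaaaacaTGTATATAcattatttaga
KIF20B site 4 (chr10:89774557-89774586, plus strand): tacatagtacaTGTATATAtttacggggta
CENPF site 1 (chr1:214664005-214664034, plus strand): ctctactgcaaTGTAAATAgtataaagcta
CENPF site 2 (chr1:214664024-214664053, plus strand): gtataaagctaTGTATATAaagctttttgg
CENPF site 3 (chr1:214664354-214664383, plus strand): cttatgaaaccTGTACATAtgtgtgtgtgg
KIF11 site 1 (chr10:92654290-92654319, plus strand): gggatttgcaaTGTAAATAcgtatttctag
KIF11 site 2 (chr10:92654983-92655012, plus strand): tgttgcttgttTGTATATAatacaatgtgt
NDC80 (chr18:2616581-2616610, plus strand): aatgttgatcaTGTATATAtatccatagtg
KIF23 (chr15:69448349-69448378, plus strand): tgaattctgtaTGTATATAttcactttctg
CDK1 (chr10:60794113-60794142, plus strand): taacttaaaaaTGTAAATAttctatatgaa
BUB1B (chr15:40221085-40221114, plus strand): accatgtatttTGTAAATAataaaatagta
TOP2A (chr17:40388584-40388613, minus strand): atcaacgttttTGTAAATAtttactatgtt

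The 4 sites of KIF20B, the most of any member, lay in a 3′UTR of 891 nt, and the first pair overlaps in the windows shown. In NDC80 the site lay in a 3′UTR of 61 nt, the shortest of any member. Over all genes, those with the element had a median of −0.27 in shControl cells and those without it −0.01. Among the members the medians were −0.53 with it and −0.42 without it in shControl cells, and −0.55 and −0.37 in shRBMS1 cells. Genes with the element have longer 3′UTRs, with a median of 2390 nt against 794 nt over all genes and 877 nt against 588 nt over members. The part of length and base composition in these shares was not tested.

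**Figure D1:**
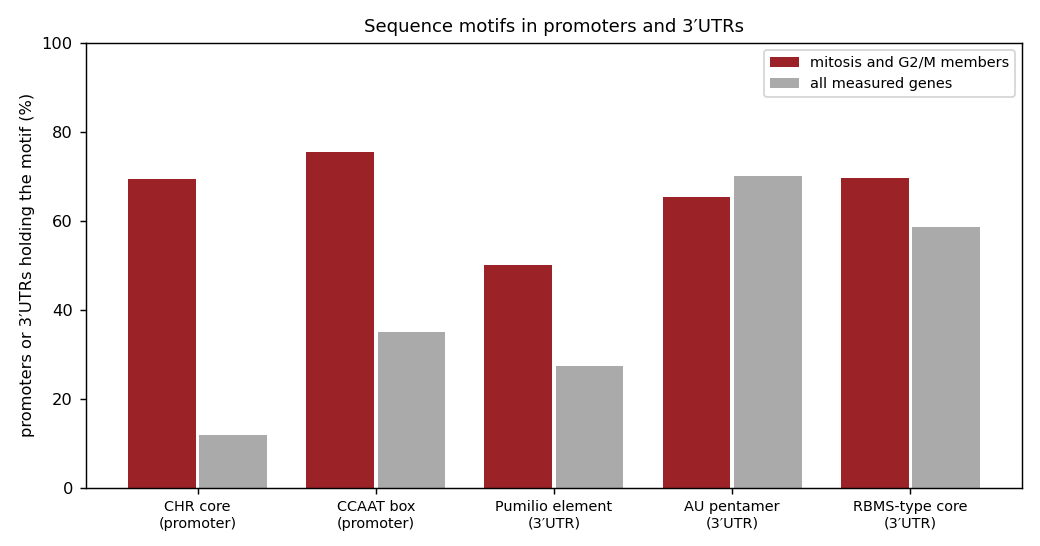
Share of promoters (left 2 groups) or 3′UTRs (right 3 groups) that hold each motif, in percent, for the members (red) and all measured genes (grey). The CHR core and the Pumilio element stand in 69.4% of promoters and 50% of 3′UTRs of the members, against 11.7% and 27.4%. The AU pentamer stands in a smaller share of the members than of all genes. The members' 3′UTRs are shorter, and per kilobase they hold 2.64 such pentamers against 2.28.

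The pentamer ATTTA, the core of AU-rich elements, was in 30 of 46 members (65.2%) and in 70.0% of all genes. Per kilobase of 3′UTR, however, the members held 2.64 ATTTA sites and all genes 2.28. Members with the pentamer had medians of −0.55 in shControl and −0.53 in shRBMS1 cells, and members without it −0.26 and −0.35. The letters ATATA, the core of the sequence that RBMS1 and its relatives bind, were in 32 of 46 members (69.6%) and in 58.5% of all genes. Per kilobase there were 2.28 such sites in the members and 1.81 in all genes. Members with ATATA also had medians of −0.55 and −0.53, and members without it −0.21 and −0.25. Over all genes the medians in shControl cells were −0.16 with ATATA and 0.03 without it, and −0.14 with ATTTA and 0.07 without it. Members with ATATA had a median 3′UTR of 811.5 nt against 531 nt, and members with ATTTA 870.5 nt against 461 nt. The part of length in these gaps was not tested. The letters ATATA can lie inside a Pumilio element, as in the first TTK site above. The centred difference, which is the knockdown value minus the control value less its median over all genes, had a median of 0.03 in members with ATATA and 0.10 in members without it. Across the 46 members, 3′UTR length showed almost no relation to the control value, with a Spearman's rho of −0.01, where all genes gave −0.18. The points share libraries and normalisation, and genes are not independent replicates.

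As a set, the members lay below most genes after the block in both cell populations. The member median was −0.46 in shControl cells, with quartiles of −0.96 and −0.22, and −0.46 in shRBMS1 cells, with quartiles of −0.82 and −0.25. All genes had medians of −0.07 and −0.06, so the members lay 0.39 and 0.40 lower. Relative to the median of cytosolic ribosomal protein mRNAs, all genes shifted to −0.48 and −0.43 and the members to −0.87 and −0.83, which moves every gene of a table by the same amount. In control cells 39 of 46 members were below 0, against 54.3% of all genes, 22 were at −0.5 or below, against 24.8%, and 12 were at −1 or below, against 9.74%. In knockdown cells 39 were below 0, against 54.1%, 21 were at −0.5 or below, against 23.9%, and 9 were at −1 or below, against 9.2%. At 1 or above stood FOXM1 and HMMR in shControl cells, where all genes had 3.49%, and HMMR alone in shRBMS1 cells, where all genes had 4.06%.

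Members that were low in one cell population were mostly low in the other. Below 0 in both tables were 36 of 46 members, against 43.3% of all genes, at −0.5 or below in both were 18, against 16.1%, and at −1 or below in both were 7, against 5.05%. These 7 were TTK, KIF23, CENPA, ASPM, KIF20B, AURKA and NDC80, which encode a checkpoint kinase, a pair of kinesins, the centromeric histone, a spindle pole protein, a spindle kinase and a kinetochore subunit. In 31 of 46 members every shared transcript was below 0 in both tables, against 34.6% of all genes.

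**Figure D2:**
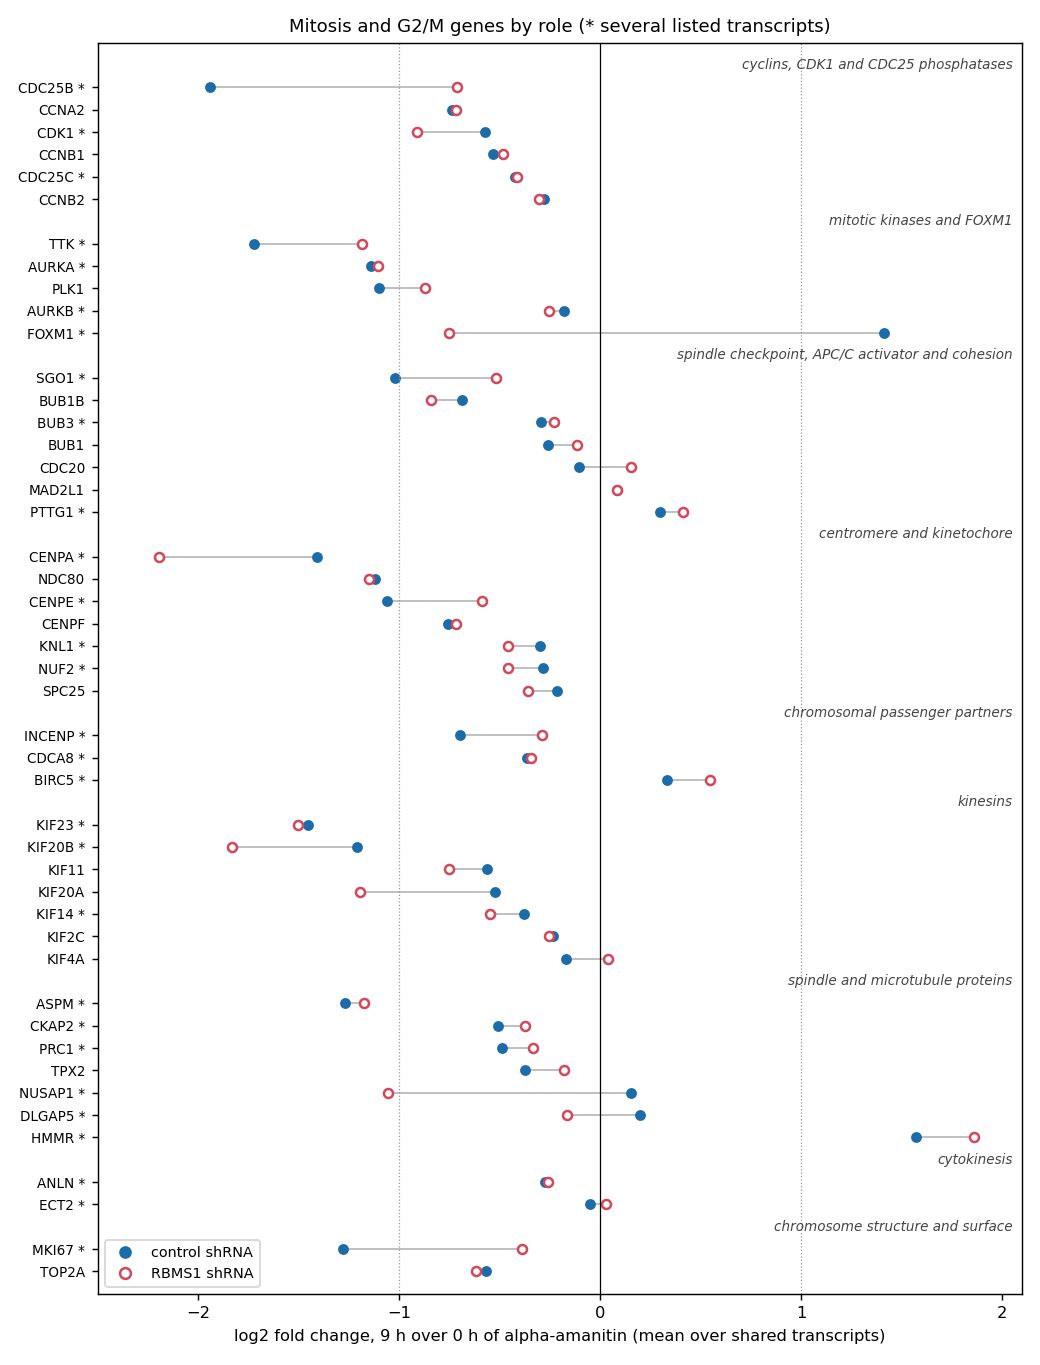
Log2 fold change, 9 h over 0 h of alpha-amanitin, of each of the 46 members in control (filled) and knockdown cells (open), as the mean over shared transcripts and grouped by role; a star marks genes with several listed transcripts and dotted lines mark −1 and 1. Most members lie to the left of 0 in both, and the widest gaps belong to FOXM1, CDC25B and NUSAP1, all with several transcripts.

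The engine of mitotic entry is CDK1 with cyclin A2, B1 and B2, switched on by CDC25 phosphatases. All 6 of these genes were below 0 in both tables, with medians of −0.55 in shControl and −0.60 in shRBMS1 cells. CCNA2, cyclin A2, stood at −0.74 and −0.72 per the authors' deposited tables, CCNB1 at −0.53 and −0.48, and CCNB2 at −0.28 and −0.30. The 3 cyclins kept this order in both cell populations, and in each the tables differed by less than the gaps between the cyclins. CDK1 (chromosome 10, 60778331 to 60794852), the catalytic partner, was at −0.57 in shControl and −0.91 in shRBMS1 cells as the mean of 2 transcripts. The transcripts stood at −0.40 and −0.75 in shControl and at −0.48 and −1.34 in shRBMS1 cells per the authors' deposited tables, and another, at 0.27, was in the control table only. CDC25C, the phosphatase of the G2/M switch, was at −0.42 and −0.41, with transcripts from −1.06 to 0.03 in shControl and from −1.67 to 0.54 in shRBMS1 cells per the authors' deposited tables.

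CDC25B, which starts CDK1 activation at the centrosome, was the lowest member in shControl cells at −1.94 and stood at −0.71 in shRBMS1 cells, a centred difference of 1.25. One of its 6 transcripts made most of that gap, at −7.84 in shControl and −2.55 in shRBMS1 cells per the authors' deposited tables. The other 5 ran from −1.05 to −0.43 in shControl and from −1.29 to 0.49 in shRBMS1 cells per the authors' deposited tables. Among these 5, a pair had centred differences of 1.00 and 0.94. In GENCODE this pair matched the same transcript as the one at −7.84, so the split is the authors' estimate. Without the one at −7.84 CDC25B stood at −0.76 in shControl cells, with a centred difference of 0.43.

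Among the mitotic kinases the spindle kinase AURKA and the entry kinase PLK1 had low values in both tables, whereas AURKB, the kinase of the chromosomal passenger complex, stayed near all genes. PLK1 (chromosome 16, 23678889 to 23690367) had 1 listed transcript, at −1.10 in shControl and −0.87 in shRBMS1 cells per the authors' deposited tables, that is 46.6% and 54.5% of the 0 h level on the authors' scale. AURKA (chromosome 20, 56369390 to 56392215) had 6 shared transcripts, each below −0.5 in both tables, with means of −1.14 and −1.11. They ran from −2.02 to −0.68 in shControl and from −1.60 to −0.59 in shRBMS1 cells per the authors' deposited tables. In GENCODE these 6 accessions matched 4 transcripts with the same coding sequence, so reads from it are shared among them and the split is the authors' estimate. AURKB was at −0.18 and −0.25, with 3 transcripts between −0.40 and 0.05 in shControl and between −0.54 and −0.10 in shRBMS1 cells per the authors' deposited tables.

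TTK, the kinase MPS1 that starts the spindle checkpoint, was at −1.72 in shControl and −1.19 in shRBMS1 cells. Its transcripts stood at −2.31 and −1.13 in shControl and at −1.07 and −1.30 in shRBMS1 cells per the authors' deposited tables, so only the first carried the gap between the cell populations. FOXM1, the transcription factor that activates many of the members, had the member set's most negative centred difference, −2.15, from 1.41 in shControl and −0.75 in shRBMS1 cells. That value came from a transcript at 6.89 in shControl and −3.23 in shRBMS1 cells per the authors' deposited tables. The other 3 stood at −0.83, −0.25 and −0.17 in shControl and at 1.22, 0.30 and −1.30 in shRBMS1 cells per the authors' deposited tables, and did not share a direction. Without the first transcript FOXM1 was at −0.42 and 0.07, and the difference changed sign, to 0.51.

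The spindle checkpoint and cohesion genes sat closer to all genes, with medians of −0.26 in shControl and −0.12 in shRBMS1 cells over 7 genes. BUB1B, the checkpoint protein BUBR1, was lowest among those with 1 listed transcript, at −0.69 and −0.84 per the authors' deposited tables. BUB1, a checkpoint kinase, was at −0.26 and −0.12 and MAD2L1, the checkpoint protein MAD2, at 0.08 in both of the authors' deposited tables. CDC20 (chromosome 1, 43358981 to 43363203), the APC/C activator that the checkpoint holds back, was at −0.10 and 0.15 per the authors' deposited tables. The 2 mRNAs CDC20 and PLK1 thus stood 1.00 apart in shControl and 1.03 apart in shRBMS1 cells, with both having a CHR core and a CCAAT box in the promoters shown above. BUB3, a WD-repeat partner of BUB1, averaged −0.30 in shControl and −0.23 in shRBMS1 cells. Its transcript with the longest member 3′UTR, 6632 nt with 23 ATTTA pentamers, stood at −0.40 and −0.35 per the authors' deposited tables. Its other transcript, with a 3′UTR of 309 nt, stood at −0.19 and −0.11 per the authors' deposited tables. PTTG1, securin, which guards separase until anaphase, was at 0.30 and 0.41, with transcripts from −0.25 to 0.88 in shControl and from 0.24 to 0.50 in shRBMS1 cells per the authors' deposited tables. SGO1, shugoshin, which protects centromeric cohesion, was at −1.02 in shControl and −0.52 in shRBMS1 cells. A pair of its 4 transcripts, at −1.45 and −1.85 in shControl but −0.18 and −0.34 in shRBMS1 cells per the authors' deposited tables, made the gap. The rest stood at −0.61 and −0.17 in shControl and at −0.64 and −0.91 in shRBMS1 cells per the authors' deposited tables. In GENCODE each of the pair matched the same transcript as 1 of the rest, so the split is the authors' estimate.

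All 7 centromere and kinetochore genes were below 0 in both tables, with medians of −0.76 in shControl and −0.59 in shRBMS1 cells. NDC80 (chromosome 18, 2571557 to 2616635), the subunit that binds microtubule ends, had the lowest control value of the 17 members with 1 listed transcript, at −1.12 in shControl and −1.15 in shRBMS1 cells per the authors' deposited tables. Its partners in the same complex stood higher, NUF2 at −0.28 and −0.46 as the mean of 2 transcripts and SPC25 at −0.21 and −0.36 per the authors' deposited tables. Subunits of 1 complex therefore ranged over 0.91 in shControl and 0.79 in shRBMS1 cells. CENPF, a large kinetochore protein of G2 and mitosis, stood at −0.76 and −0.72 per the authors' deposited tables. KNL1, the kinetochore scaffold for BUB1, was at −0.30 and −0.46 per the authors' deposited tables, and the shRBMS1 table alone held another transcript, at 0.25.

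CENPA, the histone H3 variant of centromeres, was the lowest member in shRBMS1 cells at −2.19 and stood at −1.41 in shControl cells. Its longer coding form was at −1.59 and −1.20 per the authors' deposited tables. The other transcript, which lacks coding sequence that includes a block of 78 nt in GENCODE, was at −1.23 and −3.18 per the authors' deposited tables. After centring, the transcripts differed in opposite directions, by 0.40 and −1.94. CENPE, a kinetochore kinesin, was at −1.06 and −0.59, with 1 transcript at −0.70 and −0.81 and the other at −1.42 and −0.36 per the authors' deposited tables.

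The partners of AURKB in the chromosomal passenger complex differed from each other. BIRC5, survivin, was the only one above 0, at 0.33 in shControl and 0.55 in shRBMS1 cells, and all 3 of its transcripts were above 0 in both tables, from 0.25 to 0.42 in shControl and from 0.41 to 0.74 in shRBMS1 cells per the authors' deposited tables. CDCA8, borealin, was at −0.37 and −0.34. INCENP, the scaffold, was at −0.70 and −0.29, from transcripts at −0.91 and −0.48 in shControl and at −0.12 and −0.46 in shRBMS1 cells per the authors' deposited tables.

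Kinesins move along microtubules or take them apart. All 7 were below 0 in shControl cells and 6 of 7 in shRBMS1 cells, with medians of −0.52 and −0.75. KIF11, the motor that pushes spindle poles apart, stood at −0.57 and −0.75 per the authors' deposited tables. KIF2C, which depolymerises microtubules, was at −0.24 and −0.25 and the chromokinesin KIF4A at −0.17 and 0.04 per the authors' deposited tables. KIF14, a kinesin of the midbody, had means of −0.38 and −0.55 over 2 transcripts. KIF20A, which relocates the passenger complex for cytokinesis, was at −0.52 in shControl and −1.19 in shRBMS1 cells per the authors' deposited tables. Its centred difference of −0.65 was the only one of at least 0.5 in size among the 17 members with 1 listed transcript. KIF20B, a kinesin of late cytokinesis, was at −1.21 and −1.83, with 1 transcript near −0.88 and −0.69 and another, which carries an extra coding block of 120 nt in GENCODE, at −1.54 and −2.97 per the authors' deposited tables.

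KIF23 (chromosome 15, 69414349 to 69448427), the motor subunit of centralspindlin, showed the same split of its transcripts in both cell populations. The shorter transcript was at −0.46 in shControl and −0.53 in shRBMS1 cells per the authors' deposited tables. The longer one, at −2.44 and −2.48 per the authors' deposited tables, was 1.98 and 1.94 lower. It contains a coding exon of 312 nt (GRCh38, chromosome 15, 69440768 to 69441079, plus strand) that the shorter one skips, and the first 120 bases of this exon are shown because it is the longest stretch that sets them apart:

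KIF23 exon (chr15:69440768-69440887, plus strand): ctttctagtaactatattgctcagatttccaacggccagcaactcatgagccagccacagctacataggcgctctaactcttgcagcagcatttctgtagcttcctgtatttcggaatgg

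The gap between the KIF23 transcripts thus came out alike in 2 tables made from separate libraries. ASPM, a spindle pole protein whose short form skips a single coding exon of 4755 nt in GENCODE, also kept its order. The short form was at −1.56 in shControl and −1.54 in shRBMS1 cells and the full form at −0.98 and −0.81 per the authors' deposited tables. In ASPM the form without the exon was the lower one and in KIF23 the form with it.

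Of the other spindle proteins, TPX2, which activates AURKA, was at −0.37 and −0.18 per the authors' deposited tables. PRC1, which bundles the central spindle, was at −0.49 and −0.34 and CKAP2 at −0.51 and −0.37 as means over transcripts. DLGAP5, a spindle assembly protein, had means near 0 that hid a split, since 1 transcript was at −0.89 in both tables and the other at 1.29 and 0.57 per the authors' deposited tables. HMMR, a spindle-associated hyaluronan receptor, was the highest member in both tables, at 1.57 and 1.86, through 1 of 4 transcripts at 7.81 and 9.24 per the authors' deposited tables. The other 3 lay between −1.03 and −0.14 in shControl and between −0.95 and −0.34 in shRBMS1 cells per the authors' deposited tables, and without the first HMMR stood at −0.51 and −0.60. NUSAP1, a microtubule bundler, was at 0.15 and −1.06, since 1 transcript stood at 0.63 in shControl and −4.57 in shRBMS1 cells per the authors' deposited tables, while the others were at 0.72 and −0.90 in shControl and 0.94 and 0.46 in shRBMS1 cells. With the median over transcripts NUSAP1 was at 0.46 in shRBMS1 cells and its difference changed sign, to 0.24.

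The 2 genes listed under cytokinesis had medians of −0.16 in shControl and −0.12 in shRBMS1 cells. KIF20A and KIF20B, given above with roles in cytokinesis, and KIF23 were counted with the kinesins and stood lower. ANLN, the contractile ring scaffold anillin, was at −0.27 and −0.26, with a transcript in the knockdown table only at 1.92 per the authors' deposited table. ECT2, the activator of RhoA at the cleavage furrow, was at −0.05 and 0.03. TOP2A, topoisomerase II alpha, which untangles chromosomes, stood at −0.57 and −0.62 per the authors' deposited tables. MKI67, the Ki-67 antigen that coats mitotic chromosomes, was at −1.28 in shControl and −0.39 in shRBMS1 cells, a centred difference of 0.90. Both of its transcripts were higher in shRBMS1 cells, at −1.31 and −0.71 for the form without a coding block of 1080 nt and at −1.25 and −0.07 for the full form per the authors' deposited tables. Among the members with several shared transcripts, it was the only one in which every transcript differed by at least 0.5 in the same direction after centring.

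The knockdown and control tables were then compared across members, since the series asks whether RBMS1 changes transcript stability. The median centred difference was 0.04, with quartiles of −0.14 and 0.20, and 27 of 46 members were above 0. Within 0.5 lay 37 of 46 members (80.4%), against 76.9% of all genes. At 1 or above was CDC25B, where all genes had 4.87%, and at −1 or below were FOXM1 and NUSAP1, where all genes had 4.16%. These shares are near those of all genes. Each of these 3 rested on 1 transcript, and with the median over transcripts no member was at 1 or more in size. By role the median centred difference ran from −0.15 for kinesins, with 1 of 7 above 0, to 0.43 for the pair of TOP2A and MKI67, where MKI67 alone made it. The kinesin CENPE, counted with the centromere genes, went the other way from most kinesins, at 0.49. The 3 passenger complex partners had 0.23, all above 0 as means. CDCA8 was at 0.04, from transcripts at −0.35 and 0.43, and its sign changed with the least changing transcript. The checkpoint genes had 0.13, with 6 of 7 above 0. These groups hold few genes, and their differences were not tested.

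Genes with 1 listed transcript have no split among listed isoforms. The 17 such members were at medians of −0.52 in shControl and −0.48 in shRBMS1 cells, against −0.07 and −0.06 for the 7283 such genes in all. Within 0.5 of each other after centring were 16 of 17, against 85% of such genes, the exception being KIF20A. Across these 17 members Pearson's r between the tables was 0.85 and Spearman's rho 0.84, and across such genes in all 0.71 and 0.78. Over all 46 members r was 0.70 and rho 0.75. The tables come from separate libraries but share cell line, block and processing, and these values are descriptions across genes. Of the 28 members with several shared transcripts, 13 had transcripts at least 1 apart in either table, against 64.7% of such genes.

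**Figure D3:**
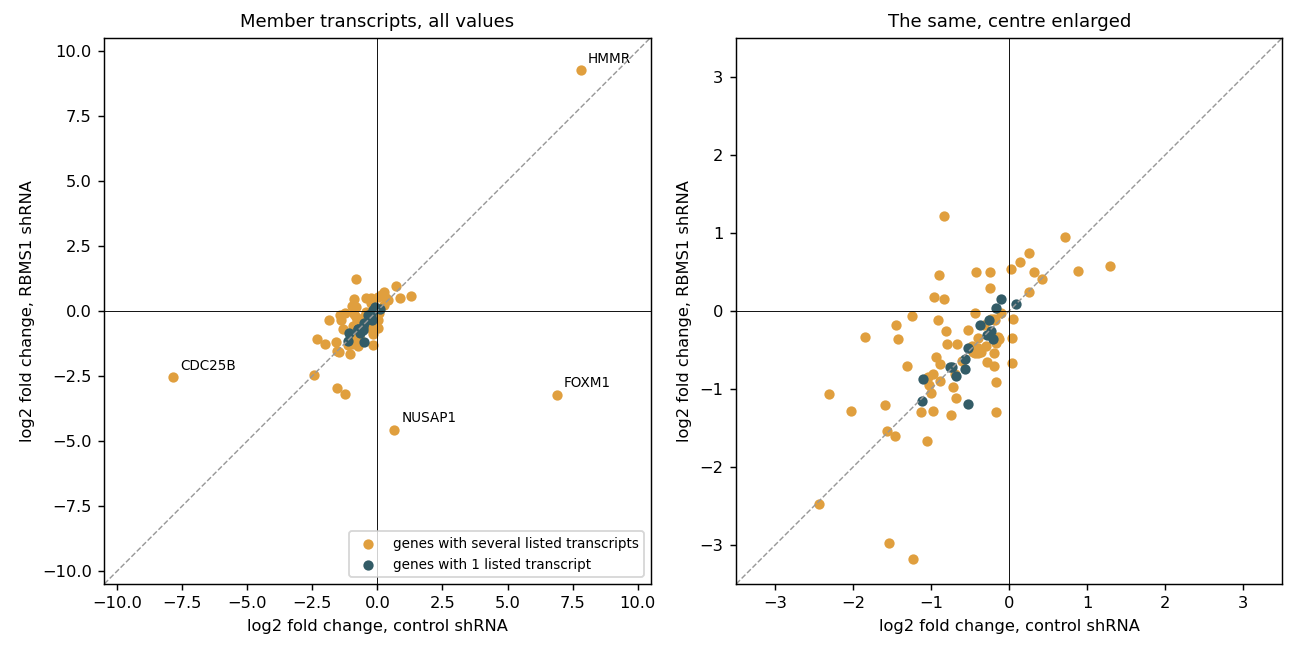
Log2 fold change in shControl cells (x axis) and knockdown cells (y axis) for the 96 member transcripts in both tables, with the dashed line at equality; the right panel enlarges the centre. Transcripts of the 17 genes with 1 listed transcript (dark) lie along the line, and the points far from 0 belong to HMMR, FOXM1, CDC25B and NUSAP1.

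The rest of the mitotic machinery sat nearer to all genes than the members did. The 143 other mitotic genes had medians of −0.16 in shControl and −0.18 in shRBMS1 cells. Below 0 were 89 (62.2%) in shControl and 94 (65.7%) in shRBMS1 cells, against 54.3% and 54.1% of all genes. At −1 or below were 8 (5.59%) and 10 (6.99%), which is under the 9.74% and 9.2% of all genes. APC/C subunits and partners had medians of −0.03 and −0.07 over 18 genes, other kinetochore and centromere genes 0.05 and −0.05 over 32, and condensin and cohesin genes −0.27 and −0.18 over 21. Spindle, centrosome and cytokinesis genes were at −0.26 and −0.27 over 35, entry regulators at −0.12 and −0.18 over 26, and DREAM and MuvB subunits at −0.20 and −0.25 over 11. DNA replication genes were at 0.02 and −0.01 over 57, with 26 (45.6%) and 29 (50.9%) below 0. The difference between members and these lists was not tested.

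Among the lowest of these other genes were several with cell cycle roles close to the members. CCNF, cyclin F, was at −1.37 and −1.34, the kinesin KIF18A at −1.16 and −1.22, the centriole kinase PLK4 at −1.11 and −0.78, and HJURP, the chaperone of CENPA, at −0.94 and −0.99 per the authors' deposited tables. Another transcript of PLK4 was listed for shRBMS1 cells only, at −8.81, and does not enter its value. FZR1, which activates the APC/C in G1, was lowest at −3.37 and −3.81 per the authors' deposited tables. WEE1, the kinase that restrains CDK1, had means of −0.97 and −0.84 over 2 transcripts. MYBL2, which encodes B-MYB, was at 0.33 and 0.37 per the authors' deposited tables and so was among the highest of its list. Other genes of these lists also stood high. NEK2 had means of 1.44 and 0.82 over 3 transcripts, which ran from −0.27 to 3.75 in shControl cells per the authors' deposited tables. HAUS2 had means of 1.12 and 0.93, and DEPDC1 1.37 and −0.18, each over 2 transcripts.

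**Figure D4:**
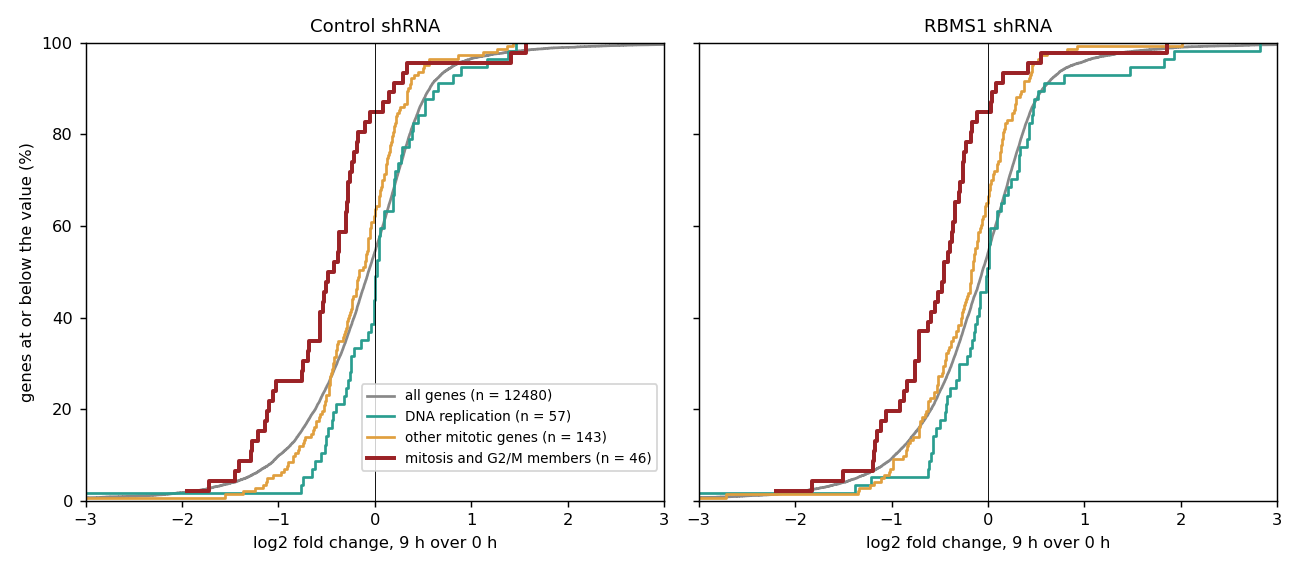
Percentage of genes at or below each log2 fold change (x axis, 9 h over 0 h, shown from −3 to 3) in shControl cells (left) and knockdown cells (right) for the 46 members, 143 other mitotic genes, 57 DNA replication genes and all 12480 genes. The curve of the members runs to the left of the others through the middle of the range in both panels, with medians of −0.46 against −0.07 and −0.06 for all genes.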

How the data were processed

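Per the labels' protocols, total RNA depleted of ribosomal RNA was made into ScriptSeq v2 libraries and sequenced on an Illumina instrument. The submitters' processing notes name STAR 2.5, Cufflinks, Cuffdiff and hg38, without roles or order. The authors deposited 1 log fold change per RefSeq transcript and shRNA, with the libraries combined. The deposited values were treated as log2, which Cuffdiff writes; the base, direction, normalisation and filters are not stated. All values lie within ±10, at most 9.995 in size, and depth per sample is unknown.

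Of 22468 accessions, 22132 were named by the RefSeq gene table (GRCh38.p14), 205 by GENCODE release 29, and 131 had no symbol and were not used. Gene values are means over transcripts listed in both tables, and the difference was centred by its median over all genes (−0.0168). Python 3.11.15 and pandas 2.3.3 were used, and the script was tested on simulated data. 3′UTRs of at least 20 nt were cut from GENCODE transcripts, and RefSeq and GENCODE ends may differ. The fixed design gave no test, since no replicate values were at hand. Counts used sizes of 1 and 0.5. Alternatives were other summaries over transcripts, transcript filters, another reference and another size.

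The members and lists were chosen with earlier results of these data known. Genes named were all members, plus some of the 2 genes at either end of each other list, ranked by their average over the tables. The sequence windows shown, and the members with a coding block, were chosen after their values were seen.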

Additional observations from a re-analysis of the deposited data

How the results depend on the processing

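The member medians kept their sign under all 9 alternatives, from −0.87 to −0.29 in shControl, from −0.83 to −0.28 in shRBMS1 cells and from 0.01 to 0.06 for the centred difference. The counts depended more on the setting. Taking the transcript nearest 0 left 5 members at −1 or below in shControl and 4 in shRBMS1 cells. The counts over all genes then went from 1215 to 913 in shControl and from 1148 to 850 in shRBMS1 cells, of 12480. Among the 17 members with 1 listed transcript, 2 (11.8%) were at −1 or below in each table. That is near the 8.99% in shControl and 8.27% in shRBMS1 cells of all such genes. Below 0 were 16 in shControl and 14 in shRBMS1 cells, against 54.8% and 54.2% of such genes. Of these 17 members, 0 had a difference of 1 or more in size, where fewer members were counted. Relative to ribosomal protein genes 17 members were at −1 or below in shRBMS1 cells, where the count over all genes also went from 1148 to 2330 of 12480. At a size of 0.5 the counts were 22 in shControl, 21 in shRBMS1 cells and 9 for the difference. The count of members with a difference of 1 or more was 3, and it was 0 with the median over transcripts, 0 with the least changing transcript and 1 without transcripts beyond 5 in size.

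Among values of 1 or more in size, signs changed for 3 members, each with 1 far transcript. Below that size, the summaries over transcripts and the transcript filters changed the sign of 6 members in shControl cells, 6 in shRBMS1 cells and 15 for the difference, most of them with the transcript nearest 0 or least changing. Among these were CDC25C, DLGAP5 and PTTG1 in shControl cells and CDC25B in shRBMS1 cells. Relative to ribosomal protein genes, signs changed for 5 members in shControl cells, namely BIRC5, DLGAP5, MAD2L1, NUSAP1 and PTTG1. In shRBMS1 cells that reference changed 4, namely CDC20, ECT2, KIF4A and MAD2L1, and for the difference 3, namely CCNB2, KIF2C and NDC80. FOXM1 in shControl cells was at −0.21 with the median, −0.17 with the transcript nearest 0 and −0.42 without transcripts beyond 5, and its difference was 0.56 with the least changing transcript and 0.51 without transcripts beyond 5. HMMR was at −0.25, −0.14 and −0.51 in shControl and at −0.43, −0.34 and −0.60 in shRBMS1 cells under these settings. NUSAP1 in shRBMS1 cells was at 0.46 with the median and with the transcript nearest 0, with differences of 0.24 in both. No paired analysis was possible because the authors merged the libraries of each shRNA, so replicate numbers are lost. Leaving out a library could not be run for the same reason. Transcripts with few reads cannot be recognised, so the precision of any single value is unknown.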
